A study of Mus musculus with 12 samples.

Results

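Luminal and basal epithelial cells of the intact mouse prostate were compared on 6 Affymetrix arrays, 3 of luminal and 3 of basal cells, out of the 12 arrays of the series. The cells came from adult male C57BL/6 mice with no transgene named, left intact from 8 weeks of age and killed 4 weeks later alongside castrated animals. Luminal cells were sorted as lineage-negative, EpCAM-positive cells with low CD49f (integrin alpha 6), and basal cells as lineage-negative, EpCAM-positive cells with high CD49f. The other 6 arrays held the same populations from mice castrated at 8 weeks and are used where the luminal-basal difference is set beside its value after castration. How many animals made up each of the 3 biological replicates is not stated, and the sorts took the whole dissociated prostate, so lobes and any minor cell types within a gate were measured together. In such bulk samples, fewer cells of a type and less RNA per cell cannot be told apart. Of 18193 genes with a probe set of their own, 14645 passed the filter on low signal and were compared, and transcription factors, receptors, ligands, adhesion genes and metabolic genes among them are described below.

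The prostatic epithelium has a layer of tall luminal cells, which secrete the proteins, citrate and ions of the prostatic fluid into the gland lumen, and a layer of basal cells, which lie on the basement membrane beneath them. Luminal cells depend on androgen for their secretory work, and basal cells hold to the basement membrane through hemidesmosomes and are known as a source of growth factors and matrix for their neighbours. Both layers also exchange signals through ligands made by one cell type and receptors on the other, and transcription factors such as p63 keep the basal identity.

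Values are MAS5 signals on a linear scale, and each trio of values follows replicates 1, 2 and 3. A difference is the mean log2(signal + 16) of luminal minus that of basal arrays ± its standard error, so a positive difference means higher in luminal cells. Adjusted p-values are from limma with Benjamini-Hochberg adjustment over the 14645 genes, n = 3 arrays per group, and called means adjusted p under 0.05. Unless stated, each called gene named here with its value was also called whenever any 1 of the 12 arrays was left out. In all, 1615 genes were called higher in luminal cells (11% of those tested) and 1237 higher in basal cells (8.45%), together 2852 (19.5%). Of the luminal genes 866 differed at least 4-fold and of the basal genes 579. The 3 luminal arrays lay above all 3 basal arrays for 2638 genes (18%), and the 3 basal arrays above all luminal ones for 2050 (14%). The median difference over all genes was 0.07, and with quantile normalization it was -0.03.

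The sorted populations carried the markers of their names. Of 17 measured basal markers 15, that is all but Tagln and Dkk3, were called higher in basal cells, beside 8.45% of all genes. Of 15 luminal markers 11 were called higher in luminal cells, beside 11% of all genes. These counts include Itga6 and Epcam, whose proteins were used for the sort, so for those 2 genes the direction is no check. Krt5, the keratin of basal cells, had signals of 20.0, 191 and 489 on the luminal arrays and 15238, 23812 and 25733 on the basal arrays (-7.08 ± 0.68, adjusted p = 1.66e-06). Its partner keratin Krt14 had 283, 73.1 and 242 on luminal and 20424, 24810.1 and 29587 on basal arrays (-7.02 ± 0.48, adjusted p = 5.33e-08). The groups did not overlap for either keratin. The luminal keratins differed far less. Krt8 had 27155, 22417 and 21538 on luminal and 16437, 12633 and 10950.0 on basal arrays (0.84 ± 0.17, adjusted p = 0.00176), and Krt18 was at 0.55 ± 0.16, a call lost without intact luminal replicate 3 or intact basal replicate 1 or 2. The secreted proteins parted the populations more widely: Pbsn (probasin) had 57928, 56237 and 70160.0 on luminal and 9468, 4705 and 12419 on basal arrays (2.89 ± 0.44, adjusted p = 0.000182), and Tgm4, the prostate transglutaminase, 40889.9, 36554 and 57548 on luminal and 3196, 1594 and 4745 on basal arrays (3.92 ± 0.43). For both, the basal arrays were thus far from empty of luminal secretory RNA. Itga6, which encodes CD49f, was at -1.42 ± 0.21 and Epcam at 0.79 ± 0.14, but the sort used both proteins, so these are no findings.

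The stretches that precede the start of these 4 cell-type-defining genes are shown because the basal keratins and the luminal secretory genes are markers by which the sorts were checked. They are the 250 bases before the RefSeq start (GRCm38.p6), each on the strand of its gene, and capitals mark matches to any of 5 motifs searched on both strands.
Krt5, chr15:101712906-101713155, minus strand: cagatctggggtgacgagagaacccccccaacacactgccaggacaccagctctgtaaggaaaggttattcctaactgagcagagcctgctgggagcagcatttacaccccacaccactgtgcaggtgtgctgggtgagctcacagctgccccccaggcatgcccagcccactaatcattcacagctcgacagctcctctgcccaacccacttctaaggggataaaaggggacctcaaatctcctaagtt
Krt14, chr11:100206031-100206280, minus strand: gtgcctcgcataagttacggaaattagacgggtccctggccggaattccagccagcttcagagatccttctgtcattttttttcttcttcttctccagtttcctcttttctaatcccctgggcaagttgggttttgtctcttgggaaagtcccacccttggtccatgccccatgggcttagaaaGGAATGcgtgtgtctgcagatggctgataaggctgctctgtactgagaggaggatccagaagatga
Pbsn, chrX:77853501-77853750, minus strand: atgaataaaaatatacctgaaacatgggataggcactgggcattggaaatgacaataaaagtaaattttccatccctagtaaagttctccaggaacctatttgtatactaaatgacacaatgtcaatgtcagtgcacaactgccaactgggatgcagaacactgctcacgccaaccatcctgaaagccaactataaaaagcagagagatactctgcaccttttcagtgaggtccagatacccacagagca
Tgm4, chr9:123034491-123034740, plus strand: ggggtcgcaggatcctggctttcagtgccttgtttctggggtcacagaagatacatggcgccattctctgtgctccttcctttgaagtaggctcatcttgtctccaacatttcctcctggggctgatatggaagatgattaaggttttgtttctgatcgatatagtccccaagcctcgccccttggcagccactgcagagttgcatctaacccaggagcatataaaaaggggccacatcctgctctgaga
The Krt14 window held the TEAD motif 66 bases before the start, and the other 3 windows held none of the 5. Windows were found for 11725 of the 14645 tested genes, and each share is given over these, then over the luminal-higher and the basal-higher genes among them. The TEAD factor motif GGAATG was in 10.7%, 11.2% and 11.8% of windows. The forkhead factor motif TGTTTAC was found in 2.28%, 2.03% and 2.23% of windows. The GATA factor motif AGATAA was found in 6.29%, 6.93% and 4.96% of windows. The motif ACATGT, found within p63 sites, was in 2.27%, 2.03% and 2.02% of windows. The AP-1 motif, TGANTCA, with N for any base, was in 4.77%, 4.6% and 5.57% of windows. These shares describe letters in a short window and were not tested.

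Transcription factors called higher in basal cells outnumbered those called higher in luminal cells. Of 613 factors listed 465 were measured, of which 38 were higher in luminal cells (8.17%) and 78 in basal cells (16.8%), against 11% and 8.45% of all genes tested. Their median difference was -0.23, beside 0.07 over all genes. Of the 38 luminal factors 14 were called the same way in castrated mice and 1 the opposite way, and of the 78 basal factors 53 and 0. Over all genes the same counts were 796 and 6 of 1615 luminal genes, and 633 and 12 of 1237 basal genes. The shares of each list, with those over all genes, are drawn in the plot by gene list.

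**Figure D1:**
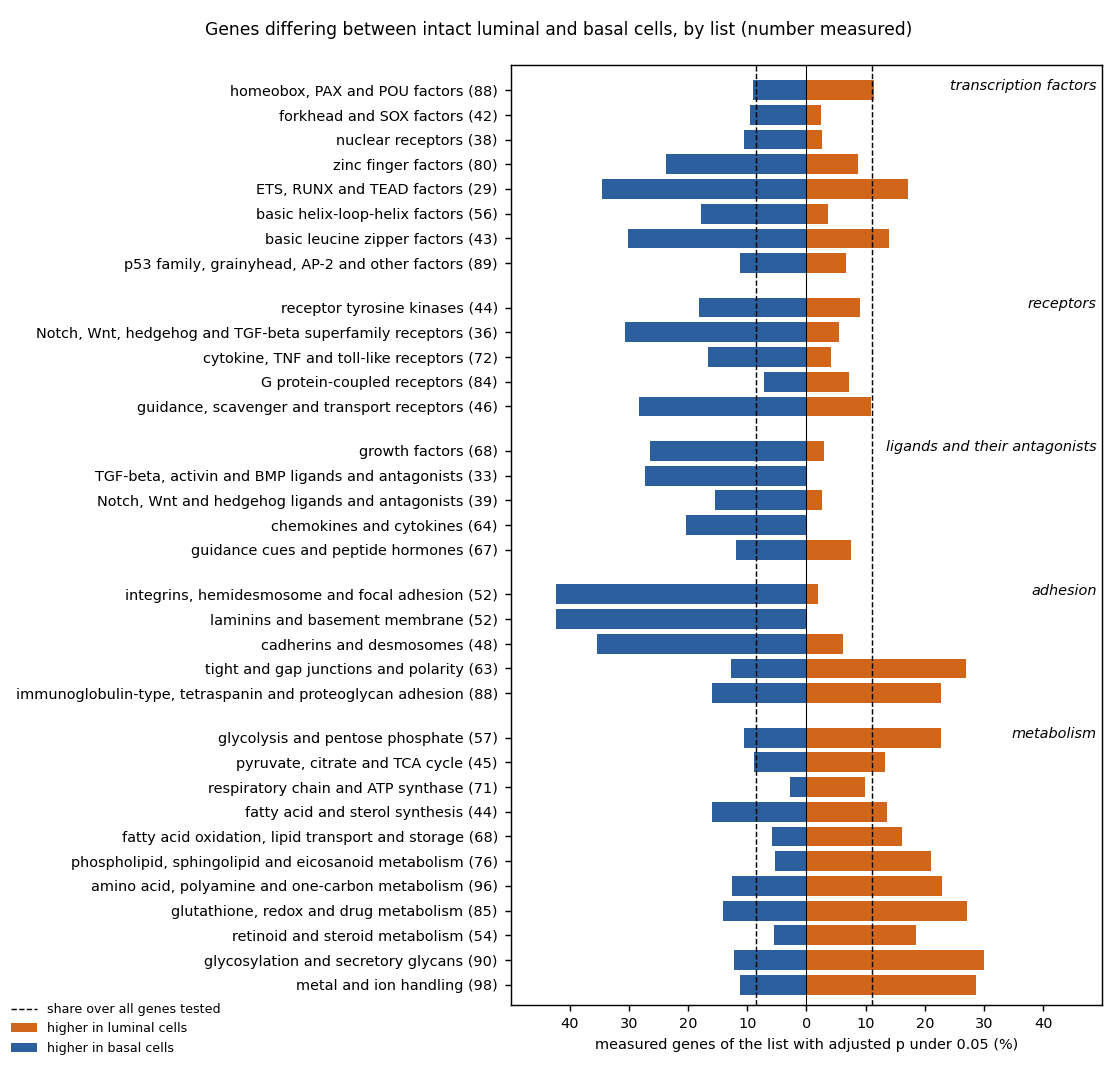
Share of the measured genes of each list, in percent, with adjusted p under 0.05 and higher in intact luminal cells (right, orange) or intact basal cells (left, blue), with the number measured in brackets and dashed lines at 11% and 8.45% for all genes tested. Basal bars are longest for the integrin and the laminin lists, at 42.3% each, and luminal bars for glycosylation, at 30.0%.

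The factors highest in luminal over basal cells belonged to several families. Elf5, an ETS factor of secretory epithelia, had 2738, 2659 and 2851 on luminal and 49.0, 39.3 and 47.2 on basal arrays (5.50 ± 0.59, adjusted p = 5.95e-06). Foxi1, a forkhead factor known from ion-transporting cells of kidney, airway and epididymis, had 2143, 1986 and 1318 on luminal and 23.4, 12.9 and 40.2 on basal arrays (5.49 ± 0.53, adjusted p = 1.69e-06). It was the only called luminal gene among 42 measured forkhead and SOX factors. Both genes were near the floor in basal cells, each of the 3 signals being under that array's 40th percentile, so that their folds depend on the added constant. Bhlha15 (Mist1), a basic helix-loop-helix factor of cells with heavy secretion, was at 4.95 ± 0.75, and Pou2f3, known from tuft cells and the skin, at 3.98 ± 0.69. Gata2, a zinc finger factor, was well measured on every array, at 7608, 8083 and 13149.7 in luminal and 878, 792 and 747 in basal cells (3.51 ± 0.36, adjusted p = 3.80e-06). Esrrg, an orphan nuclear receptor of oxidative metabolism, was the only luminal gene among 38 nuclear receptors (3.70 ± 0.53). Tfcp2l1 (3.08 ± 0.53), the epidermal differentiation factor Zfp750 (3.01 ± 0.63), Tead2 (2.79 ± 0.68) and the homeobox gene Emx2 (3.01 ± 0.73) were higher in luminal cells too. Creb3l2, a membrane-bound factor of the secretory pathway, had the smaller difference of 1.34 ± 0.33.

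The basal factors were led by Snai2 (Slug), a zinc finger repressor of epithelial genes, with signals of 65.8, 45.1 and 12.1 on luminal and 9573, 8295 and 8120.1 on basal arrays (-7.38 ± 0.41, adjusted p = 1.53e-08). Trp63, which encodes p63, had 119, 97.4 and 216 on luminal and 7017, 8969 and 9052 on basal arrays (-5.76 ± 0.43, adjusted p = 1.01e-07). Ets1 (-4.81 ± 0.37), the hedgehog pathway effector Gli3 (-4.76 ± 0.64), Cebpa (-4.64 ± 0.73) and the growth factor-induced Egr3 (-4.01 ± 0.38) followed. All 3 basal arrays lay above all 3 luminal arrays for each of these 6. The ETS, RUNX and TEAD list and the basic leucine zipper list had basal shares of 34.5% and 30.2%. In the ETS, RUNX and TEAD list 5 of 29 were higher in luminal and 10 in basal cells. In the basic leucine zipper list 6 of 43 were higher in luminal and 13 in basal cells, among them Maf (-3.26 ± 0.36), Fosl1 (-2.44 ± 0.19) and the oxidative stress regulator Nfe2l2 (-1.99 ± 0.23). Of 56 basic helix-loop-helix factors 10 were higher in basal cells, and these included Id1, Id2, Id3 and Id4, the dominant-negative inhibitors of that family, at differences of -1.61, -1.34, -1.53 and -1.41. The Hox genes went both ways. The basal side held Hoxa5 (-3.86 ± 0.72), Hoxd10 (-3.53 ± 0.50), Hoxd11 (-2.93 ± 0.62) and Hoxd13 (-2.61 ± 0.30), and the luminal side Hoxd9 (2.14 ± 0.45) and 4 others whose calls were lost when an array was left out.

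Some factors of prostate identity did not follow the cell type that their use as luminal markers implies. Foxa1, a pioneer factor that opens chromatin, was higher in basal cells, at 3265, 3118 and 2792 on luminal and 7551, 9194 and 5884 on basal arrays (-1.28 ± 0.23, adjusted p = 0.000948), and the difference had the same direction after castration (-0.79 ± 0.23). Hoxb13, the posterior homeobox factor of the prostate, had 3283, 3334 and 2662 on luminal and 854, 1460.4 and 2943 on basal arrays. Basal replicate 3 lay within the luminal range, and Hoxb13 did not pass the test (0.99 ± 0.48, adjusted p = 0.171). Its difference in castrated mice was 2.94 ± 0.48 (adjusted p = 0.000341). The change between the 2 differences was itself not called (intact minus castrated -1.95 ± 0.68, adjusted p = 0.214). A list of genes known to rise during tissue dissociation, not all of them transcription factors, leaned to basal cells. In it 7 of 15 were called higher in basal and 0 in luminal cells, beside 8.45% and 11% of all genes. The 7 were Egr1, Egr2, Fosb, Nr4a1, Ier3, Hspa1a and Hspa1b, the calls of Fosb and Hspa1a being lost in some leave-outs. Egr1 had 19019, 21197 and 30618 on luminal and 33169, 42558 and 46050.4 on basal arrays (-0.80 ± 0.17) and Nr4a1 3049, 4666 and 3965 on luminal and 12304, 19014 and 11366 on basal arrays (-1.85 ± 0.24), whereas Fos (-0.37 ± 0.24) and Jun (0.04 ± 0.20) did not pass the test. The part of dissociation in the other differences was not tested.

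**Figure D2:**
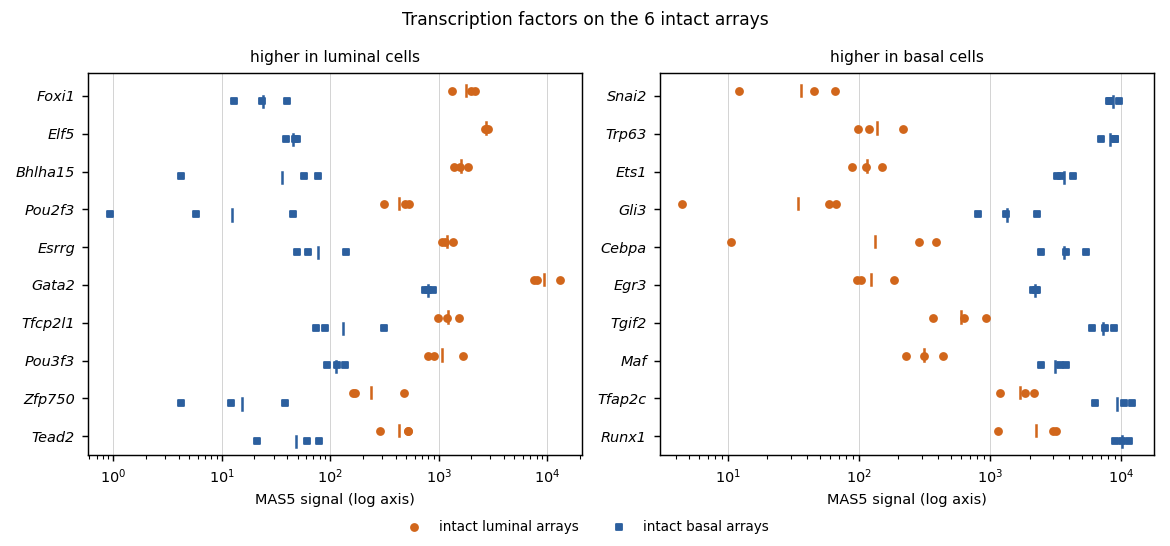
MAS5 signal (log axis) of 20 transcription factors on the 3 intact luminal (orange circles) and 3 intact basal arrays (blue squares), with a bar at the mean of log2(signal + 16). The groups do not overlap for any of the 20, and Gata2 stays between 747 and 878 on the basal arrays while several other luminal factors fall below 100.

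Receptor genes also leaned to basal cells. Of 410 listed 282 were measured, of which 20 were higher in luminal (7.09%) and 50 in basal cells (17.7%), beside 11% and 8.45% of all genes, and the median difference was -0.25. Among 44 receptor tyrosine kinases 4 were higher in luminal and 8 in basal cells. Egfr, the receptor of epidermal growth factor, had 145, 62.4 and 1.76 on luminal and 1623, 1245 and 3324 on basal arrays (-4.97 ± 0.65, adjusted p = 4.06e-05). Luminal replicate 3 was far below the other luminal arrays, and the 3 basal arrays were above all of them. Axl, a receptor of Gas6, was at -5.38 ± 0.70, and Fgfr2, the receptor of stromal fibroblast growth factors, had 2991, 3661 and 2127 on luminal and 13329, 12838 and 14337 on basal arrays (-2.23 ± 0.21). The ephrin receptors Epha1 (-2.13 ± 0.50) and Epha2 (-1.97 ± 0.38) were also higher in basal cells. On the luminal side Erbb3, a neuregulin receptor that signals through partner kinases, had 3867, 2769 and 2992 on luminal and 1018, 905 and 255 on basal arrays (2.33 ± 0.43, adjusted p = 0.001), and Kit, the stem cell factor receptor, 254, 270.4 and 372 on luminal and 0.31, 35.2 and 4.23 on basal arrays (3.60 ± 0.58, adjusted p = 0.000319). All 3 basal Kit signals were below the 40th percentile of their arrays. Met, the hepatocyte growth factor receptor, did not pass the test (-0.62 ± 0.26, adjusted p = 0.103).

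Of 36 receptors of the Notch, Wnt, hedgehog and TGF-beta families 2 were higher in luminal (5.56%) and 11 in basal cells (30.6%). Each share in this paragraph stands beside 11% of all genes called higher in luminal and 8.45% in basal cells. The large luminal difference was that of Bmpr1b, a type I bone morphogenetic protein receptor, with 5140.0, 5095 and 3595 on luminal and 196, 76.1 and 96.3 on basal arrays (5.13 ± 0.46, adjusted p = 7.79e-07). The basal genes included Notch1 (-1.18 ± 0.28), Notch2 (-1.99 ± 0.32) and the Wnt receptors Fzd1 (-2.59 ± 0.33) and Fzd8 (-3.50 ± 0.68). Also basal were the type I receptor Acvr1 (-1.58 ± 0.34), the co-receptor Tgfbr3 (-1.95 ± 0.30) and the decoy receptor Bambi (-2.08 ± 0.49). Bmpr1b and Acvr1, which share ligands, thus differed in opposite directions. Of 72 cytokine, TNF and toll-like receptors 3 were higher in luminal (4.17%) and 12 in basal cells (16.7%). The interleukin-6 receptor family was split: Il6st, the shared signalling subunit gp130 (-2.20 ± 0.22), Osmr (-1.95 ± 0.39) and Il6ra (-1.83 ± 0.28) were higher in basal cells, and Lifr, the leukaemia inhibitory factor receptor, in luminal cells, with 1392, 972 and 2083 on luminal and 164, 80.8 and 139 on basal arrays (3.36 ± 0.51, adjusted p = 0.000177). Ngfr, the neurotrophin receptor used as a basal marker, was at -3.24 ± 0.73. Of 84 measured G protein-coupled receptors, out of 169 listed, 6 were higher in each cell type. That was 7.14% both ways, below the shares over all genes. The adhesion receptor Adgrf1 (4.46 ± 0.62) led the luminal side and the chemokine scavenger Ackr3 (-2.75 ± 0.34) the basal side. Guidance, scavenger and transport receptors had 5 luminal (10.9%) and 13 basal genes (28.3%) of 46. The luminal side held Scara3 (5.14 ± 0.58), the immunoglobulin transporter Pigr (4.70 ± 0.81) and the folate receptor Folr1 (4.01 ± 0.69). The basal side held Lrp4 (-3.78 ± 0.81), the protein C receptor Procr (-3.51 ± 0.61), Robo1 (-3.16 ± 0.44) and the transferrin receptor Tfrc (-2.60 ± 0.25). Pigr was at 5844, 4599.8 and 592 on the luminal arrays, so replicate 3 was well below the other luminal arrays.

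Ligands showed the most uneven split of the 5 classes by count. Of 382 listed 271 were measured, of which 8 were higher in luminal (2.95%) and 54 in basal cells (19.9%), beside 11% and 8.45% of all genes. The median difference was -0.60, and only 3 of the 8 luminal calls held with each array left out in turn, against 33 of the 54 basal calls. Over all genes 860 of 1615 luminal and 734 of 1237 basal calls held in this way. Growth factors had 2 luminal and 18 basal genes of 68. Egf, the epidermal growth factor gene, was the large luminal exception, with 3992, 3108 and 2500.2 on luminal and 55.7, 165 and 347 on basal arrays (4.24 ± 0.62, adjusted p = 0.000127). The basal side was led by Kitl, which encodes stem cell factor, with 295, 396 and 14.6 on luminal and 3799, 5687 and 6509 on basal arrays (-5.05 ± 0.67, adjusted p = 5.02e-05), and held the heparin-binding Mdk (-3.57 ± 0.60) and Ptn (-2.22 ± 0.51), the EGF receptor ligands Epgn (-3.23 ± 0.64) and Hbegf (-2.05 ± 0.18), and Pdgfa (-2.67 ± 0.50), Hgf (-2.66 ± 0.52), Pgf (-2.59 ± 0.68) and Gas6 (-1.98 ± 0.35). Hbegf was well measured in both cell types, with 6623, 7566 and 5401 on luminal and 25674, 26464 and 28529 on basal arrays.

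Neither the TGF-beta list nor the cytokine list had a gene called higher in luminal cells. Of 33 TGF-beta, activin and BMP ligands and antagonists 0 were higher in luminal and 9 in basal cells, among them Inhba, the activin A subunit (-3.67 ± 0.82), Tgfb1 (-2.54 ± 0.55), Bmp2 (-2.46 ± 0.57), Bmp4 (-2.49 ± 0.59), the activin antagonists Fst (-2.55 ± 0.61) and Fstl3 (-3.67 ± 0.76), and Ltbp4, which stores TGF-beta in the matrix (-3.83 ± 0.43). Of 64 chemokines and cytokines 0 were higher in luminal and 13 in basal cells. Lif, a cytokine of the interleukin-6 family, had 62.5, 3.11 and 84.3 on luminal and 8419.7, 5637 and 6850.1 on basal arrays (-7.02 ± 0.48, adjusted p = 5.33e-08). Il33, an alarmin, had 121, 90.8 and 30.9 on luminal and 734, 1834 and 1429 on basal arrays (-3.84 ± 0.58), and the chemokines Cxcl14 (-2.95 ± 0.61) and Cxcl1 (-1.73 ± 0.21) were higher in basal cells as well. Of 39 Notch, Wnt and hedgehog ligands 6 were higher in basal cells. They included the Notch ligands Dll1 (-5.61 ± 0.63, adjusted p = 8.43e-06), Jag2 (-4.41 ± 0.47) and Jag1 (-3.14 ± 0.41), and Shh, the ligand of the hedgehog pathway, with 25.8, 111 and 36.5 on luminal and 1042, 1493 and 1089.7 on basal arrays (-4.21 ± 0.53, adjusted p = 3.02e-05). The single luminal gene of that list was Dkkl1 (2.92 ± 0.62). The guidance cues and peptide hormones, with 5 luminal and 8 basal genes of 67, were the most evenly divided of the 5 ligand lists.

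Of 105 ligand and receptor pairs written down for this comparison 80 had both genes measured, and in 19 of them both genes were called. Ligand and receptor were both higher in basal cells in 12 pairs. The ligand was basal and the receptor luminal in 4, the reverse held in 3, and both were luminal in 0. In 14 other pairs only a basal ligand was called, in 12 only a basal receptor and in 1 only a luminal receptor. Neither gene was called in 34. Calls of the listed ligands (2.95% luminal, 19.9% basal) and receptors (7.09% and 17.7%) leaned the same way, beside 11% and 8.45% of all genes. With so few luminal calls a luminal-luminal pair was unlikely, and the split of the pairs was not tested. The 19 pairs are not independent, since Egfr is the receptor in 4 and Notch1 in 3. Among basal-basal pairs were Jag1, Jag2 and Dll1 with Notch1, Jag1 with Notch2, Hbegf with Egfr, Gas6 with Axl, and collagen XVII (Col17a1) with its hemidesmosome partner Itgb4. The basal-to-luminal pairs were Lif with Lifr, Kitl with Kit, Gas6 with Tyro3 (2.65 ± 0.66, a call lost without the replicate 3 arrays) and Nrg1 with Erbb3. The last rests on Nrg1 at 3.74, 22.4 and 38.3 on luminal and 152, 141 and 123 on basal arrays, and its call was lost without intact luminal replicate 1 or 2 or intact basal replicate 1 or 2. Egf with Egfr ran from luminal to basal cells. The other luminal-to-basal pairs, Btc with Egfr and Sema4d with Plxnb1, had a ligand call that was lost in 8 and in 3 of the 12 leave-outs, and Btc also lost it with a replicate block (adjusted p = 0.0593). Transcript levels of both genes say nothing of protein or signalling.

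**Figure D3:**
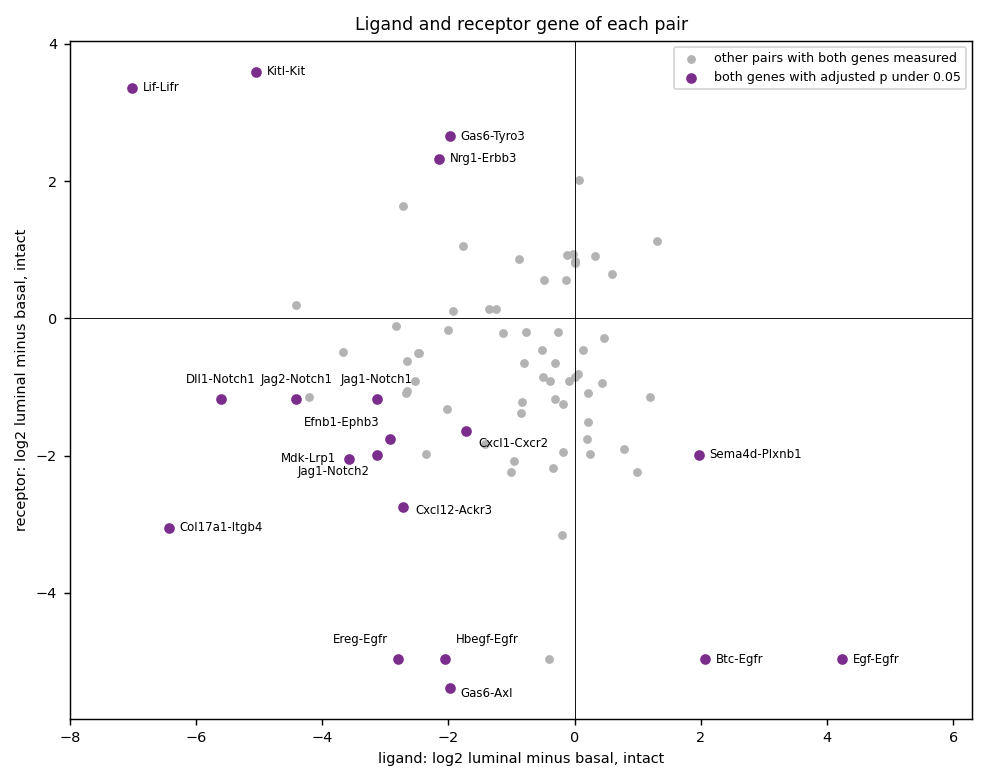
Difference (log2, luminal minus basal, intact) of the ligand gene (horizontal) and of the receptor gene (vertical) for 80 pairs with both genes measured, with the 19 pairs in which both genes were called in purple and named. Of the 19, 12 lie at the lower left (both basal), 4 at the upper left, 3 at the lower right and 0 at the upper right. The calls of single ligands and receptors lean to basal cells too, and the split was not tested.

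Adhesion genes separated the cell types by the kind of contact. Of 351 listed 303 were measured, of which 41 were higher in luminal (13.5%) and 83 in basal cells (27.4%), beside 11% and 8.45% of all genes, with a median difference of -0.44. Integrins, hemidesmosome and focal adhesion genes had 1 luminal and 22 basal genes of 52, and laminins and other basement membrane genes 0 luminal and 22 basal genes of 52. Their median differences were -1.09 and -1.49. Col17a1, the hemidesmosome collagen, had 9.52, 5.89 and 58.0 on luminal and 4305, 3359.8 and 1789.9 on basal arrays (-6.43 ± 0.58, adjusted p = 9.78e-07). Its integrin partner Itgb4 had 291, 412 and 57.5 on luminal and 1892, 1698 and 1676 on basal arrays (-3.05 ± 0.52), and Itgb1, the common beta subunit, only -1.35 ± 0.25. The focal adhesion adaptors Tgfb1i1 (Hic-5, -6.02 ± 0.55) and Tns4 (-5.21 ± 0.53) had larger differences than Pxn (-1.76 ± 0.21), Ilk (-1.62 ± 0.24) and Zyx (-1.50 ± 0.24). Basement membrane genes higher in basal cells included the laminin-332 chains Lama3 (-4.11 ± 0.88) and Lamb3 (-3.99 ± 0.60), and the collagen IV chains Col4a1 (-4.31 ± 0.41) and Col4a2 (-3.69 ± 0.62). Lama3 was at 23.6, 80.7 and 1860.3 on luminal arrays, so luminal replicate 3 lay far above the other luminal arrays, and Lamb3 at 179.8, 70.3 and 971 had the same array highest.

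Cell-cell junction genes divided by type. Of 48 cadherin and desmosome genes 3 were higher in luminal and 17 in basal cells. The plakophilins of the desmosome plaque differed by form: Pkp1 had 117, 129.6 and 152 on luminal and 2226, 2948 and 2284 on basal arrays (-4.06 ± 0.40), and Pkp2 1575, 1222 and 1669.7 on luminal and 169, 542 and 116 on basal arrays (2.64 ± 0.57). The desmosomal plaque genes Dsp (-1.20 ± 0.19) and Jup (-0.89 ± 0.19) were moderately higher in basal cells, as was Perp (-1.34 ± 0.19). Cdh1, E-cadherin, was at 10325, 9995 and 6987 on luminal and 9105, 8471 and 8018 on basal arrays and did not pass the test (0.07 ± 0.18, adjusted p = 0.829). Tight and gap junction genes went the other way, with 17 luminal and 8 basal genes of 63 (27.0% and 12.7%). Claudins Cldn10 (4.83 ± 0.68), Cldn2 (4.55 ± 0.66), Cldn3 (3.60 ± 0.52), Cldn8 (3.51 ± 0.64) and Cldn7 (1.52 ± 0.26) were higher in luminal cells and Cldn1 (-2.37 ± 0.39) in basal cells. The connexins split in the same manner, Gjb2 (connexin 26) at 4.38 ± 0.64 and Gja1 (connexin 43) at -3.12 ± 0.46. The polarity gene Crb3 (2.38 ± 0.48) was luminal and Pard3 (-1.75 ± 0.27) basal.

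Among immunoglobulin-type, tetraspanin and proteoglycan genes 20 of 88 were higher in luminal and 14 in basal cells. The apical membrane protein gene Prom1 (CD133) had 10642, 10947 and 9526 on luminal and 344, 128 and 437 on basal arrays (5.18 ± 0.42, adjusted p = 2.51e-07), and the tetraspanins Tspan8 (4.77 ± 0.48), Tspan13 (4.58 ± 0.45) and Tspan1 (4.27 ± 0.68) followed it. Upk1a, a uroplakin of the urothelium, had 11124, 11806 and 575 on the luminal arrays, so that replicate 3 was far below the others, against 170.2, 74.9 and 40.5 on basal arrays (5.44 ± 1.02). The nectins, adhesion receptors that bind each other, split into Nectin4 (4.53 ± 0.91) on the luminal and Nectin1 (-4.45 ± 0.48) on the basal side. The syndecans and glypicans called were all basal: Sdc1 (-4.26 ± 0.40), Sdc4 (-1.01 ± 0.18), Gpc3 (-4.82 ± 0.55), Gpc4 (-2.53 ± 0.31) and Gpc6 (-3.57 ± 0.73) kept the call in every leave-out, while Sdc2, Sdc3 and Gpc2 did not pass the test. Pdpn, podoplanin, had 286, 92.6 and 231 on luminal and 15849.7, 13158 and 11944 on basal arrays (-6.08 ± 0.40, adjusted p = 5.33e-08).

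Metabolic genes leaned to luminal cells. Of 937 listed 783 were measured, of which 169 were higher in luminal (21.6%) and 76 in basal cells (9.71%), beside 11% and 8.45% of all genes, with a median difference of 0.30. The largest luminal counts were those of glycosylation (27 luminal and 11 basal of 90), metal and ion handling (28 and 11 of 98), glutathione and drug metabolism (23 and 12 of 85) and amino acid metabolism (22 and 12 of 96). The respiratory chain had 7 and 2 of 71, below the shares over all genes on both sides. Outside these lists, Cyp4a12a, a fatty acid hydroxylase of male mice, had the largest luminal difference of any gene named here, with 5443, 4966 and 4133 on luminal and 52.3, 4.00 and 4.58 on basal arrays (7.31 ± 0.73, adjusted p = 2.35e-06).

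In central carbon metabolism, 13 of 57 glycolysis and pentose phosphate genes were higher in luminal (22.8%) and 6 in basal cells (10.5%), and some related genes were opposed. Pdk4, the kinase that shuts pyruvate out of the citric acid cycle, had 5.49, 55.9 and 11.2 on luminal and 5333, 5735 and 5837 on basal arrays (-7.34 ± 0.53, adjusted p = 8.48e-08). The monocarboxylate carriers for lactate and pyruvate were opposed: Slc16a1 (MCT1) had 272, 95.7 and 231 on luminal and 5339, 4527 and 5221 on basal arrays (-4.66 ± 0.40, adjusted p = 5.80e-07), and Slc16a7 (MCT2) 1845, 1842 and 2262 on luminal and 208, 133 and 453 on basal arrays (2.99 ± 0.45). Pfkfb3, which makes the activator of phosphofructokinase, was at 3.63 ± 0.27 and the heart-type lactate dehydrogenase Ldhb at 2.63 ± 0.32, both higher in luminal cells. Carriers of the Slc2a family went both ways. Slc2a9 (-4.45 ± 0.57) and, by a smaller margin, Slc2a1 (-0.86 ± 0.14) were basal. Slc2a8 (2.97 ± 0.78, a call lost without intact luminal replicate 3 or intact basal replicate 3) was luminal. The list of pyruvate, citrate and citric acid cycle genes, wider than the cycle itself, had 6 of 45 luminal (13.3%) and 4 basal (8.89%). These shares were near the 11% and 8.45% over all genes. The aspartate transaminase Got1 was at 2.70 ± 0.51, the malate dehydrogenase Mdh1 at 1.01 ± 0.22 and Sdha at 1.34 ± 0.31, against Ogdh at -2.06 ± 0.46. The Ogdh call was lost when the probe sets of a gene were averaged, as was that of Lama3.

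Amino acid and lipid genes gave further luminal markers. Cdo1, the cysteine dioxygenase, was at 37983, 38941 and 49848 on luminal and 3241, 1809 and 2518 on basal arrays (4.09 ± 0.27, adjusted p = 5.33e-08). Aass, of lysine breakdown (5.36 ± 0.62), the mitochondrial creatine kinase Ckmt1 (4.72 ± 0.83) and the amino acid carriers Slc38a1 (3.89 ± 0.44) and Slc6a14 (3.62 ± 0.48) were also luminal. Of 76 phospholipid, sphingolipid and eicosanoid genes 16 were luminal and 4 basal, led by Degs2, which makes phytoceramide (4.50 ± 0.78), Alox5ap (4.46 ± 0.68) and the prostaglandin D synthase Ptgds (3.98 ± 0.87). Sterol synthesis gave both directions, with Dhcr7 (3.68 ± 0.73) higher in luminal cells, and Hmgcs1, the first committed step, higher in basal cells at 4107, 3435 and 3009 on luminal and 11000.0, 14446 and 19250.4 on basal arrays (-2.05 ± 0.24). That list had 6 luminal and 7 basal genes of 44. In redox and drug metabolism Gstm7 (4.74 ± 0.70) and Cbr1 (3.30 ± 0.42) were luminal, whereas Fmo2, a flavin monooxygenase (-4.11 ± 0.29, adjusted p = 7.72e-08), Cyp2s1 (-4.43 ± 0.43) and Gsto2 (-4.02 ± 0.60) were basal. Aldehyde dehydrogenases split into Aldh3a2 (2.72 ± 0.36) in luminal cells and Aldh3a1 (-4.25 ± 0.49) and the retinal-oxidizing Aldh1a1 (-1.76 ± 0.30) in basal cells.

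Fut2, the fucosyltransferase of secretor glycans, had 1256, 2078 and 1739.6 on luminal and 141, 39.7 and 54.1 on basal arrays (4.30 ± 0.55, adjusted p = 3.73e-05), and the oligosaccharyltransferase subunits Ddost (2.35 ± 0.38), Rpn1 (1.76 ± 0.36) and Rpn2 (1.68 ± 0.28), which put N-glycans on new proteins, were luminal. The basal genes of the list included the chondroitin sulfotransferases Chst11 (-4.97 ± 0.66) and Chst15 (-3.07 ± 0.79), the heparan sulfate polymerase Ext1 (-3.66 ± 0.50) and the heparan sulfotransferases Hs3st1 (-2.18 ± 0.47) and Hs3st3b1 (-2.72 ± 0.59). In ion handling the sodium-glucose carrier Slc5a1 (5.72 ± 0.76), the anion exchanger Slc26a3 (5.26 ± 0.67), the potassium channel Kcnq1 (4.39 ± 0.49) and the zinc carriers Slc39a8 (3.59 ± 0.31) and Slc30a2 (3.44 ± 0.66) were luminal. The water channels divided, Aqp5 (3.77 ± 0.76) to luminal and Aqp3 to basal cells, the latter with 34.4, 16.4 and 1.79 on luminal and 5455, 9325 and 1962 on basal arrays (-7.24 ± 0.56, adjusted p = 1.62e-07). Ceruloplasmin, Cp, the copper ferroxidase, had 109, 104 and 495 on luminal and 9765, 8449 and 7952 on basal arrays (-5.46 ± 0.42, adjusted p = 1.45e-07), and the carbonic anhydrases split into Car2 (3.34 ± 0.48) in luminal and Car9 (-4.59 ± 0.58) in basal cells.

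**Figure D4:**
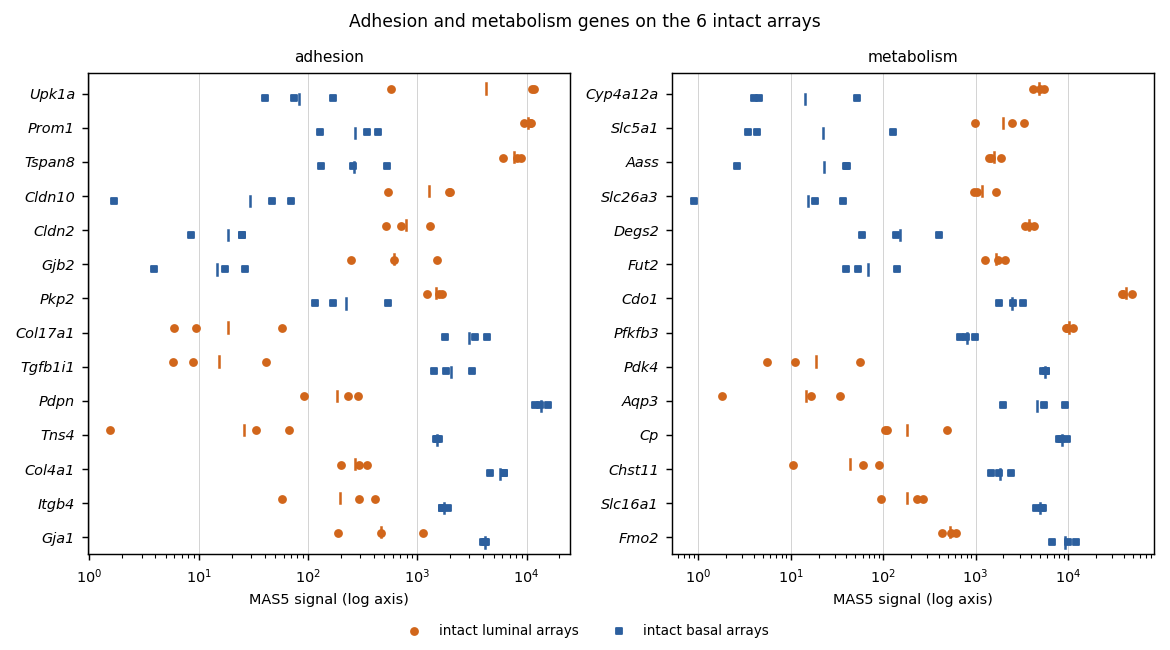
MAS5 signal (log axis) of 14 adhesion and 14 metabolism genes (Cyp4a12a, outside the lists, among the latter) on the 3 intact luminal (orange circles) and 3 intact basal arrays (blue squares), with a bar at the mean of log2(signal + 16). The groups do not overlap for any of them. Luminal replicate 3 is the lowest luminal array for Upk1a and Cldn10, and Pdk4 and Aqp3 stay under 100 on every luminal array.

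Outside the 5 classes, large luminal differences besides that of Cyp4a12a were those of the neurofilament gene Nefh (6.62 ± 0.57), Svs6 (6.84 ± 0.89), the defensin Defb42 (6.37 ± 0.87), the surface antigen Psca (6.23 ± 1.16), the ribonuclease Rnase1 (6.05 ± 0.61), the protease Plau (5.84 ± 0.37), Cd52 (5.76 ± 0.77) and Fam3b (5.65 ± 0.65). Plau was the steadiest, at 12200.2, 13688 and 16071 on luminal and 157, 207 and 356 on basal arrays. On the basal side stood Tenm2 (-7.27 ± 0.57), for which another probe set was called in the opposite direction, the matrix proteoglycan Fmod (-7.15 ± 0.91) and the carboxypeptidase Scpep1 (-6.23 ± 0.42, adjusted p = 5.33e-08).

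Markers of other cell types moved with these groups in places. Each count below stands beside 11% of all genes called higher in luminal and 8.45% in basal cells. Of 11 measured fibroblast markers 4 were called higher in basal (36.4%) and 0 in luminal cells, with a median difference of -1.09. For 7 of the 11 all basal arrays lay above all luminal arrays. The summed signal of the list was 53357 to 67101 on basal against 8051 to 14286 on luminal arrays. The sum came mainly from Dcn (22817, 20728 and 19696 on basal arrays), Sparc (16614, 12407 and 15355) and Pdpn. The collagen gene Col1a1 had 606, 288 and 855 on luminal and 966, 476 and 573 on basal arrays. It did not pass the test, nor did Col3a1 (-0.31 ± 0.68) or the receptor Pdgfra (-1.09 ± 0.61). The part of the fibroblast markers in the basal ligand, adhesion and matrix values was not tested. Of 8 smooth muscle markers 2 were called higher in basal cells, Smtn (-4.36 ± 0.48) and Myl9 (-3.16 ± 0.58), with Acta2 at 130.5, 325 and 1183 on luminal and 580.0, 542 and 349.6 on basal arrays and sums of 652 to 2516 on luminal and 4726 to 6441 on basal arrays. Their part was not tested either. Leukocyte markers had 1 basal call of 12 (Cd79a, lost in 8 of 12 leave-outs) and sums of 1001 to 1807 on luminal and 1865 to 2999 on basal arrays, with Ptprc (CD45) at 36.3, 57.1 and 32.9 on luminal and 21.7, 37.7 and 52.3 on basal arrays. Endothelial markers had 0 calls of 10 (sums of 517 to 1723 and 1078 to 1598), and erythroid markers 0 of 2 (sums of 178 to 282 on luminal and 227 to 727 on basal arrays). Neuroendocrine and nerve markers had 1 basal call of 6, Ncam1 (-2.50 ± 0.36), and sums of 1648 to 1891 on luminal and 6045 to 11188 on basal arrays. Seminal vesicle secretory genes, of a gland that borders the prostate, had 6 luminal calls of 7, and their sum was 314032 to 394909 on luminal and 27369 to 49527 on basal arrays. Their part in the luminal values was not tested. Of 10 proliferation markers 2 were higher in luminal and 1, Pcna (-1.65 ± 0.22), in basal cells, and the luminal calls of Mki67 and Top2a were each lost in 2 or 3 leave-outs, while the summed signal of the list was lower on luminal than on basal arrays (5304 to 7770 on luminal and 13124 to 16784 on basal arrays). Of 9 reference genes 2 were called each way.

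The luminal-basal differences were set beside those of castrated mice, whose arrays are separate samples. In castrated mice 2701 genes were called between luminal and basal cells (18.4%). Of the 1615 intact luminal genes 796 were called luminal there too and 6 basal, and of the 1237 intact basal genes 633 were called basal and 12 luminal. The difference itself changed with castration for 168 genes (1.15%), 51 of them luminal and 64 basal in intact mice. Among these were 8 of the 465 measured transcription factors, 7 of 282 receptors, 9 of 271 ligands, 12 of 303 adhesion and 24 of 783 metabolism genes. Trp63 was at -7.95 ± 0.43 after castration, Gata2 at 2.69 ± 0.36, Bmpr1b at 3.53 ± 0.46 and Col17a1 at -6.46 ± 0.58, none with a called change. Pfkfb3 lost its difference, from 3.63 ± 0.27 to 0.35 ± 0.27 (adjusted p of the change = 0.000584), with signals of 1239.7, 1372 and 1265 in castrated luminal and 992, 1021 and 1014 in castrated basal cells. Hmgcs1 went from -2.05 ± 0.24 to 0.37 ± 0.24 (adjusted p of the change = 0.00269) and Cyp2s1 from -4.43 ± 0.43 to -0.40 ± 0.43 (adjusted p of the change = 0.00374). Probasin differed more after castration, at 6.45 ± 0.44, although its signal was lower in both cell types. It had 5953, 4690 and 4837 in castrated luminal and 134, 19.1 and 23.2 in castrated basal cells. The mean signals in intact mice were 61442 in luminal and 8864 in basal cells. The last 2 castrated basal signals were near the added constant of 16, so the size of the castrated difference depends on that constant. Lif, the basal cytokine, kept its direction at a smaller size of -3.52 ± 0.48, a change that lost its call without castrated luminal replicate 1.

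**Figure D5:**
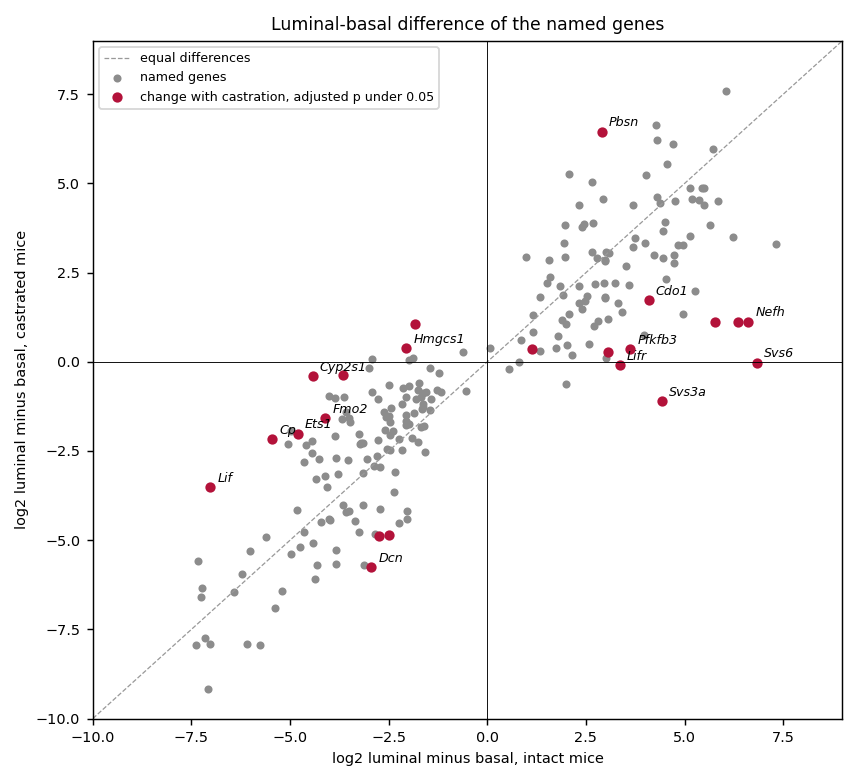
Difference (log2, luminal minus basal) of the 238 named genes in intact (horizontal) and castrated mice (vertical), with the line of equal differences dashed and the 22 genes whose difference changed with castration in red, 14 of them named. Most points lie in the lower left or upper right quadrant (225 of the 235 called genes have the same sign in both), and Pfkfb3, Svs6 and Lifr lie near 0 in castrated mice.

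Library facts bear on all of these values. Log2 signals of the 3 intact luminal arrays correlated across genes at 0.863 to 0.930 and those of the 3 intact basal arrays at 0.865 to 0.894, against 0.746 to 0.796 between the cell types, genes not being independent. Replicate 3 had the lowest weight of both groups when arrays were weighted by their agreement with the fit (0.363 and 0.504), and without both of those arrays the count of called genes was 2498. The 3' to 5' signal ratio of Gapdh, a sign of RNA integrity, was 6.66 to 7.88 on luminal and 4.70 to 8.70 on basal arrays. That of Actb was far lower, at 0.781 to 0.950 on luminal and 0.938 to 0.986 on basal arrays, so the 2 controls differed. The groups overlapped for both. Standard errors rest on one spread estimate from all 4 groups, and the castrated luminal arrays were the most alike (median standard deviation 0.321 against 0.578 and 0.606 in the compared groups). Fitted on the 6 intact arrays alone, 2082 genes were called, 1174 luminal and 908 basal.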

How the data were processed

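The deposited table holds MAS5 signal intensity for 45101 probe sets on 12 Affymetrix arrays. Per the submitters' processing notes the authors used MAS5, and its version is not given in the sources used here. Every array had a trimmed mean of 500. Per the labels' protocols, RNA from sorted cells was amplified with the NuGEN Pico kit.

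Values were analysed as log2(signal + 16). Probe sets with 1 gene symbol (34945) that exceeded the array's 40th percentile on at least 3 of 12 arrays were kept, 1 per gene (the highest mean), and genes below it are called dim. limma 3.58.1 in R 4.3.3 was fitted to 4 group means with an intensity-trended prior (8 residual degrees of freedom), with contrasts within intact mice, within castrated mice and between them. The steps were tested on simulated data.

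Gene lists, pairs and members were chosen with earlier results of these data known. Named genes were fixed markers and receptors, up to 3 per list and direction with the largest called difference and no overlap, the 10 largest per direction over all genes under the same conditions without provisional symbols, pairs with both genes called, and members of the other-cell-type lists. In the text, values go mainly to genes whose call held in the leave-outs, and other list members are named as examples, both chosen after values were seen. A listed name was matched through RefSeq synonyms only where it is no current symbol of another gene. The design text says that castrated and intact animals were paired in 3 sets, and replicate numbers are taken to mark them. Deviations of same-numbered intact luminal and basal arrays from their group means correlated at 0.0091, 0.0147 and 0.0200. Nothing says whether a replicate held 1 or several animals, and p-values measure the spread between these samples. The number of arrays limits the precision. Alternatives covered normalization, the added constant, filters, trend, weights, probe sets, replicate blocks and left-out arrays.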

Additional observations from a re-analysis of the deposited data

Results flagged for a closer look

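For 22 of the 238 named genes the luminal-basal difference itself differed between intact and castrated mice in limma's test of the change, and each value here is the intact minus the castrated difference in log2 units. In 11 the change was called whichever array was left out: Pbsn (-3.55), Pfkfb3 (3.28), Hmgcs1 (-2.43), Cdo1 (2.36), Cyp2s1 (-4.03), Fmo2 (-2.53), Cp (-3.29), Dcn (2.82), Svs6 (6.87), Svs3a (5.52) and Nefh (5.49). In the other 11 the call was lost in at least 1 leave-out. These were Ets1 (-2.79, lost without castrated luminal replicate 3), Lif (-3.50, lost without castrated luminal replicate 1), Lifr (3.45), Ncam1 (2.34), Ext1 (-3.28), Cd52 (4.65), Ackr3 (2.13), Rdh10 (-2.88), B2m (0.789), Defb42 (5.26) and Pou3f3 (2.80), the last lost in all 12.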

How the results depend on the processing

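With a replicate block the intact comparison gave 2778 called genes in place of 2852, and with a random replicate block 2892. The block ended 3 calls among the named genes, Btc (adjusted p = 0.0593), Cxcr2 (0.0674) and Pdk1 (0.0591), and no other named call. Of 235 called named genes 171 kept the call in every alternative, including the settings without the number 3 arrays that were chosen after seeing the data, and 28 lost it in the fit of the 6 intact arrays. Testing every probe set singly gave 4672 calls. Leaving out 1 array gave 2160 to 3138 calls in intact mice, 1720 to 3109 in castrated mice and 65 to 163 changes with castration, against 168. Those changes numbered 27 without the intensity trend and 83 without all 4 arrays of number 3. Over the leave-outs the calls were 94 to 126 for transcription factors, 57 to 75 for receptors, 46 to 68 for ligands, 99 to 128 for adhesion and 179 to 260 for metabolism. Reversed directions were seen for Pnpla2 at -0.20 with averaged probe sets (adjusted p = 0.799), and for Cdh1, never called, which ranged from -0.028 without intact luminal replicate 1 to 0.25 without replicate 3 and was also below 0 without replicate 2. The cause was not tested. With quantile normalization 50.16% of calls were luminal. For genes dim in one cell type, the size of a fold depends on the added constant.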

Other observations

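Foxi1 was the only luminal forkhead gene, so genes known from ionocytes and kidney intercalated cells, which pump acid and ions, were read as a list written after the values were seen and are given without a test. Of 17 listed 11 were measured, 9 of them called higher in luminal and 1 in basal cells, with a median difference of 3.08. Over all genes 11% were called higher in luminal and 8.45% in basal cells. The 9 include Foxi1, which prompted the list, and Tfcp2l1 and Car2, already given above as luminal, so the count in part repeats those values. Besides Foxi1, the proton pump subunits Atp6v1b1 (3.06 ± 0.69), Atp6v0d2 (4.21 ± 0.58) and Atp6v1c2 (4.52 ± 0.61), the anion exchanger Slc26a4 (4.45 ± 0.78) and the factor Tfcp2l1 (3.08 ± 0.53) were called in every leave-out. The calls of Atp6v0a4 and Dmrt2 were lost in 5 and 4 leave-outs, and Slc4a1 was the basal gene. Tuft cell genes, read the same way and beside the same shares over all genes, had 3 luminal calls and 1 basal call of 13 measured (20 listed). Their median was 0.47, and the luminal calls include Pou2f3 and Alox5ap, already given above. Pou2f3, Alox5ap and Plcg2 (2.82 ± 0.54) were luminal, while Trpm5 (0.47 ± 0.71), Dclk1 (-0.76 ± 0.66) and Avil (-0.20 ± 0.83) did not pass the test.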
